A study of Schizosaccharomyces pombe with 6 samples.

Results

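The mRNAs of the small (40S) subunit of the cytosolic ribosome were examined in RNA that came down with the long non-coding RNA *aal1* in fission yeast (*Schizosaccharomyces pombe*). They were chosen by name, as the nuclear genes whose standard symbol is *rps* followed by a digit, with mitochondrial ribosomal protein genes left out. This gave 55 of the 7001 genes in the count table. They encode 31 proteins, of which 22 have 2 genes, 1 (Rps4) has 3 genes and 8 (Rps2, Rps3, Rps7, Rps13, Rps20, Rps21, Rps27 and Rps29) have a single gene. In ChIRP-seq, cells are crosslinked, biotinylated DNA probes complementary to *aal1* are captured on streptavidin beads, and the RNA that comes with them is sequenced. The question was which RNAs *aal1* contacts in non-dividing cells.

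The 6 libraries came from 3 strains, with 2 separately grown and processed cultures each, all harvested on Day 6 after entry into stationary phase in minimal medium (EMMG). The *aal1-pOE* cells held a plasmid from which the *P41nmt1* promoter, which thiamine represses, drives *aal1*, in a 972h-/leu1-32 background. Wild-type (wt) cells were 972h-. The *aal1∆* cells were 972h- with *aal1* removed by CRISPR-Cas9, and show what probes and beads recover when the target is missing. Because no empty-vector library was analysed here, *aal1* dose, plasmid and *leu1-32* background cannot be told apart in *aal1-pOE*. There was also no library of input RNA, so the amount of an mRNA in the cells and its recovery by the probes cannot be told apart either.

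The 40S subunit decodes mRNA. It is built from a single ribosomal RNA and a set of Rps proteins, most of which are placed on it during assembly in the nucleolus. The core includes Rps2, Rps3 and Rps9 around the channel where mRNA enters, Rps14 on the side where it leaves, and Rps15 and Rps23 close to the decoding site. Ribosomal protein mRNAs are among the most abundant of a growing yeast cell and are strongly controlled by nutrients. In fission yeast many Rps proteins are made from paralogous genes that lie far apart in the genome, and the promoters of ribosomal protein genes carry shared elements, the HomolD and HomolE boxes.

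Paralogs can be told apart where their sequences differ. Of 25 within-family pairs, 8 encode identical proteins, and coding identity ran from 74.9% to 94.3%. The following stretches of 60 bases of coding sequence are those of 2 families on which the paralog results turn, from RefSeq's ASM294v3 assembly, 5′ to 3′, with capitals at bases that differ within the pair. The Rps1 pair (bases 1 to 60, both on chromosome I) was the most uneven in recovery.
*rps101*: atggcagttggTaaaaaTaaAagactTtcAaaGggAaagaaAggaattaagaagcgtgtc
*rps102*: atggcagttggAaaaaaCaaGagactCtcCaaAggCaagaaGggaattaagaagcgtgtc
*rps402* (chromosome II) and *rps403* (chromosome I) of the Rps4 family (bases 1 to 60) are shown because their counts lay on opposite sides of *aal1∆* in *aal1-pOE*, and they differ at 11 of these bases.
*rps402*: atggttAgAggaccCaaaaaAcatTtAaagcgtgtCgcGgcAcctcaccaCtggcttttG
*rps403*: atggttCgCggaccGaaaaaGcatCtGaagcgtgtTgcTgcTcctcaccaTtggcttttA
A trimmed read of 67 nt would fit both genes of a pair only where no base differs over its length. Of the 25 pairs, 22 share 0 such stretches. *rps1401* and *rps1402* share 35 and *rps401* and *rps403* share 31, so that counts of these pairs are less certain than those of most others.

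The labels were checked with *aal1* itself, which gave 9540 and 20832 counts in *aal1-pOE*, 28 and 147 in wild type, against 0 and 0 in *aal1∆* (adjusted p = 5.33e-14 for *aal1-pOE* against *aal1∆*, 5.22e-05 for wild type against *aal1∆* and 3.52e-08 for *aal1-pOE* against wild type, edgeR's quasi-likelihood test). The libraries held 91917 and 82299 counts in *aal1-pOE*, 89491 and 86614 in wild type, against 175263 and 40653 in *aal1∆*, so the reference strain has both the deepest and the shallowest library. For the *rps* genes, the 2 libraries of each strain were further apart than counting noise (chi-square per degree of freedom 4.09 in *aal1-pOE*, 4.24 in wild type and 3.01 in *aal1∆*, where 1 is counting noise alone if every count is a separate molecule).

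Small-subunit mRNAs were recovered in every library. They summed to 836 and 831 counts in *aal1-pOE*, 861 and 736 in wild type, against 1225 and 354 in *aal1∆*. Of the 55 genes, 52 and 48 had at least 1 count in *aal1-pOE*, 48 and 52 in wild type, against 55 and 43 in *aal1∆*. As a share of all nuclear mRNA counts, they made up 1.68% and 2.22% in *aal1-pOE*, 1.47% and 2.01% in wild type, against 1.30% and 1.56% in *aal1∆*. The means were 1.95% ± 0.381 in *aal1-pOE*, 1.74% ± 0.382 in wild type and 1.43% ± 0.179 in *aal1∆* (SD, n = 2 each). The shares of *aal1-pOE* lay above those of *aal1∆* without overlap, while wild type overlapped both other strains. Exact binomial 95% intervals, which cover counting error only, were 1.57% to 1.80% and 2.08% to 2.38% in *aal1-pOE*, against 1.23% to 1.38% and 1.40% to 1.73% in *aal1∆*. The first *aal1-pOE* interval overlapped the second *aal1∆* interval, and the gap between the *aal1-pOE* replicates was as wide as the difference between the strain means.

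**Figure D1:**
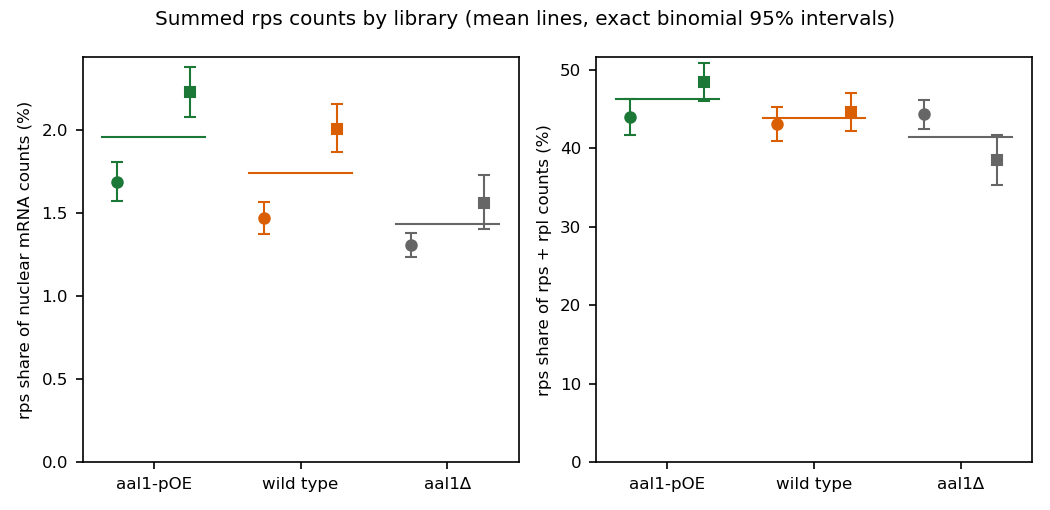
Summed *rps* counts as a percent of nuclear mRNA counts (left) and of *rps* plus *rpl* counts (right), 1 point per library (circle, replicate 1; square, replicate 2), with exact binomial 95% intervals and a line at each strain's mean. On the left both *aal1-pOE* points (1.68% and 2.22%) lie above both *aal1∆* points (1.30% and 1.56%); on the right the lowest point is *aal1∆* replicate 2 at 38.5%.

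Large-subunit mRNAs were used as the closest comparison, since *rpl* genes (76 in the table) share regulation and promoter elements with *rps* genes. Their share of nuclear mRNA counts averaged 2.26% ± 0.156 in *aal1-pOE*, 2.22% ± 0.387 in wild type and 2.07% ± 0.601 in *aal1∆* (SD, n = 2 each). Small-subunit mRNAs took 44.0% and 48.4% of all *rps* plus *rpl* counts in *aal1-pOE*, 43.0% and 44.6% in wild type, against 44.3% and 38.5% in *aal1∆*. The strains overlapped in this ratio, and the lowest value was that of the shallow second *aal1∆* library.

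Per kilobase of annotated transcript, and with the genes of a protein summed, the recovered mRNAs spanned a wide range (CPM per kb, where CPM are counts scaled to a library total of 1000000). Of that total, rRNA made up 19.1% and 18.7% in *aal1-pOE*, 19.4% and 44.8% in wild type, against 39.0% and 31.2% in *aal1∆*. *aal1* itself made up 10.4% and 25.3% in *aal1-pOE*. Differences in CPM per kb between libraries therefore also depend on these shares. Averaged over the 6 libraries, Rps1 was highest at 748, followed by Rps15 at 675, Rps0 at 674, Rps4 at 666 and Rps7 at 644. The median protein stood at 388. Rps28, a small protein near the mRNA exit, averaged 87.9, and the zinc-binding Rps29 averaged 14.5. Rps29 is encoded by *rps29* alone, which had 5 counts in *aal1∆* replicate 1 and 0 in each of the other 5 libraries. The order of neighbouring proteins is within the spread: Rps1 ranged from 578 to 1112 and Rps15 from 319 to 955 over the 6 libraries. Rps28 was at 0 in 2 libraries and Rps26 in 1.

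**Figure D2:**
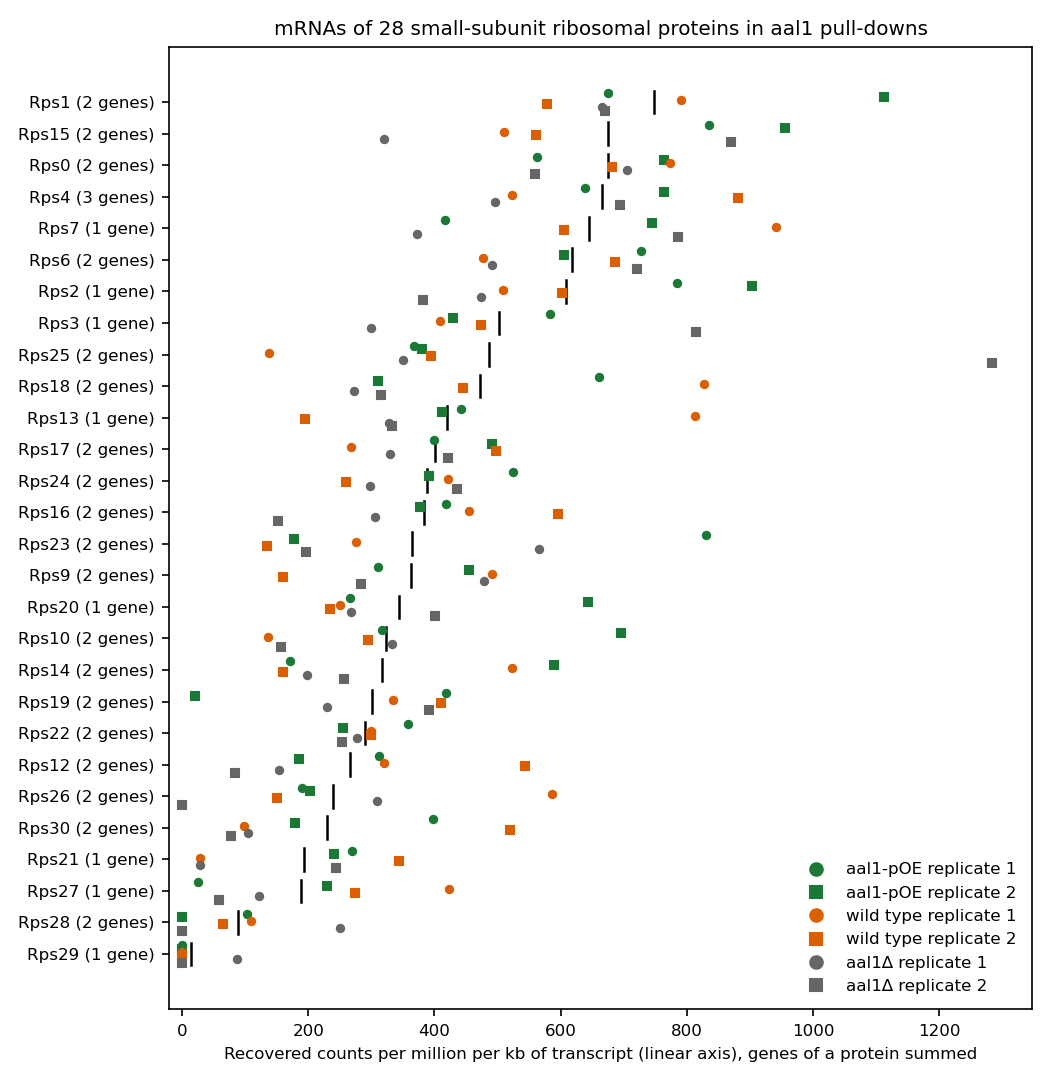
Recovered CPM per kb of transcript for 28 small-subunit proteins (rows, genes of a protein summed), with 1 point per library and a black line at the mean of the 6 libraries. Means run down the page from 748 (Rps1) to 14.5 (Rps29), and the points of most proteins spread over a range wider than the step to the next protein.

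Among single genes, the highest were *rps7*, *rps102* and *rps2*. The gene *rps7*, whose protein lies on the solvent side of the subunit, had 417 and 745 CPM per kb in *aal1-pOE*, 942 and 605 in wild type, against 372 and 785 in *aal1∆*. In normalised CPM (TMM-scaled library size, not per kb) *rps7* had 346 and 772 in *aal1-pOE*, 625 and 637 in wild type, against 325 and 611 in *aal1∆*. The gap between its wild-type replicates thus depends on the scaling. *rps102*, the main gene of Rps1, had 593 and 1072 CPM per kb in *aal1-pOE*, 609 and 428 in wild type, against 578 and 536 in *aal1∆*. *rps2*, which encodes a protein of the mRNA entry channel, had 784 and 903 in *aal1-pOE*, 508 and 602 in wild type, against 474 and 382 in *aal1∆*. Of these 3 genes, only *rps2* had both *aal1-pOE* libraries above all 4 others. The lowest among the 36 genes with at least 1 count in every library were *rps1201* (mean 93.1), *rps1701* (111) and *rps101* (113), and the span from *rps1201* to *rps7* was 6.92-fold.

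Longer *rps* mRNAs were recovered better per kilobase. The 12 genes with transcripts of 800 nt or more had a median of 337 CPM per kb, the 26 of at least 500 but under 800 nt 192, and the 17 under 500 nt 169. Spearman's rho between length and CPM per kb was 0.42 over the 55 genes, and ran from 0.27 to 0.48 in single libraries; it is a description across genes, which share the same 6 libraries and are not independent replicates. It was 0.31 over the 76 *rpl* genes, 0.21 over all 5057 other nuclear mRNAs and 0.05 over the 1612 of these of 300 to 1300 nt. Among those 1612, the median was 5.37 CPM per kb for the 181 under 500 nt. It was 11.7 for the 387 of at least 500 but under 800 nt, and 11.2 for the 1044 of 800 nt or more. Lower values under 500 nt were thus not particular to *rps* genes. Exceptions among the *rps* genes ran both ways: *rps2502*, with a transcript of 326 nt, had a mean of 402 CPM per kb, and *rps101*, with 920 nt, had 113.

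**Figure D3:**
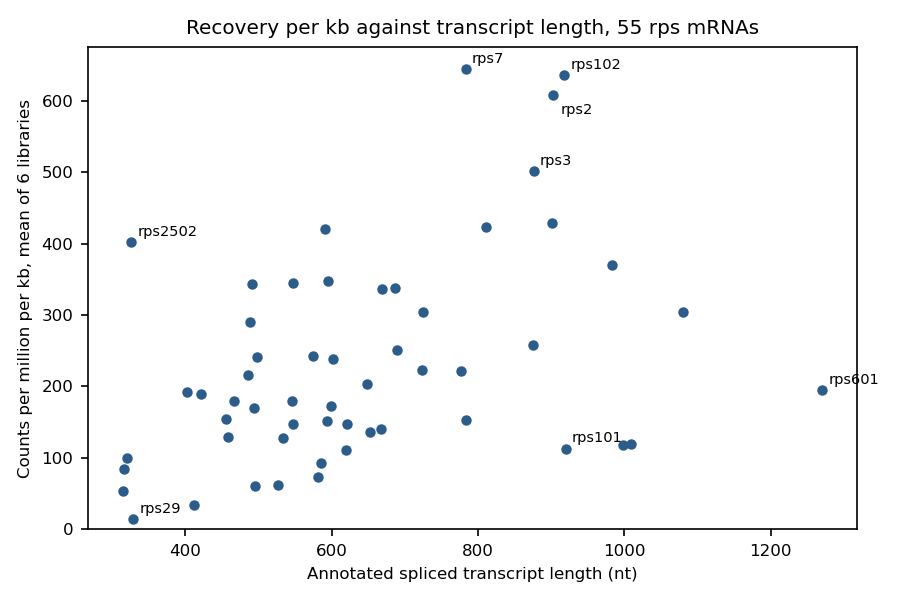
Mean CPM per kb over the 6 libraries (y axis) against annotated spliced transcript length in nt (x axis) for the 55 *rps* mRNAs, 1 point per gene. The 3 highest genes (*rps7*, *rps102* and *rps2*) have transcripts of 783 to 918 nt, and *rps29* (329 nt) lies lowest.

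Each mRNA was then compared between strains with edgeR, over 1329 RNAs that passed a filter on low counts. Of the 55 *rps* genes 39 passed; the filter reads the same counts, so counts and medians over these 39 are descriptions. None of the 39 was called at an adjusted p of 0.05 in any comparison, by edgeR's quasi-likelihood test, its likelihood ratio test or DESeq2. At an unadjusted p under 0.05 DESeq2 gave 1 gene higher in *aal1-pOE* against *aal1∆*, 0 in wild type against *aal1∆* and 1 in *aal1-pOE* against wild type. The likelihood ratio test gave 3 higher, 2 higher and 1 lower, and 3 higher, in the same order. For these 2 tests the share of all RNAs at that level was not computed, so these counts are descriptions only. The smallest adjusted p was 0.820 for *aal1-pOE* against *aal1∆*, 0.999 for wild type against *aal1∆* and 0.995 for *aal1-pOE* against wild type. Of all RNAs tested, 0.301% were called higher and 0.0752% lower in *aal1-pOE* against *aal1∆*, 0.15% higher and 0% lower in wild type against *aal1∆*, and 0.226% higher and 0% lower in *aal1-pOE* against wild type, so that calls were rare among all RNAs. Standard errors of the *rps* log2 fold changes had a median of 0.96 in *aal1-pOE* against *aal1∆*, 0.97 in wild type against *aal1∆* and 0.94 in *aal1-pOE* against wild type.

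The log2 fold changes of the tested *rps* genes in *aal1-pOE* over *aal1∆* had a median of 0.52, against 0.01 for all RNAs tested and 0.12 for the 47 tested *rpl* genes. They were above 0 for 33 of 39 *rps* genes, against 676 of 1329 RNAs. Without the filter, over all 55 genes, the median was 0.48. At an unadjusted p under 0.05, 3 genes were higher and 0 lower, where 2.26% and 3.16% of all RNAs were. The *aal1-pOE* libraries lay above *aal1∆* without overlap for 11 *rps* genes (28.2%) and below it for 3 (7.69%), against 17.1% and 17.1% of all RNAs. The size of the median rests on single libraries: it was 0.28 without *aal1-pOE* replicate 2 and 0.66 without *aal1∆* replicate 2, where the medians of all RNAs tested were -0.04 and 0.02. Without *aal1∆* replicate 1 the median of all RNAs moved to 0.29, and the *rps* median of 0.61 was 0.31 above it. Within *aal1-pOE*, the median log2 normalised CPM of the tested *rps* genes was 7.54 in replicate 1 and 8.18 in replicate 2, against 7.62 and 7.72 for all tested RNAs; in *aal1∆* it was 7.14 and 7.21, against 7.59 and 7.62.

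Wild type over *aal1∆* gave a smaller median of 0.24 for the tested *rps* genes, against 0.00 for all RNAs and 0.28 for *rpl* genes, with 26 of 39 above 0 against 667 of 1329 RNAs. It was 0.27 over all 55 genes without the filter. At an unadjusted p under 0.05, 1 *rps* gene was higher and 0 lower, where 1.13% and 1.35% of all RNAs were. The wild-type libraries lay above *aal1∆* without overlap for 12 *rps* genes (30.8%) and below for 1 (2.56%), against 14.3% and 16% of all RNAs. Leaving out a wild-type library gave 0.42 (replicate 1) or 0.15 (replicate 2), with medians of all RNAs of -0.07 and -0.06. Leaving out *aal1∆* replicate 2 gave 0.52, against 0.02 for all RNAs. Without *aal1∆* replicate 1 both medians moved, to 0.48 for *rps* genes and 0.27 for all RNAs, a difference of 0.21 against 0.24 with all libraries. This comparison and the one above use the same *aal1∆* libraries, so that a low or high value there enters both.

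*aal1-pOE* over wild type gave a median of 0.28 for the tested *rps* genes, against 0.03 for all RNAs and 0.12 for *rpl* genes, with 23 of 39 above 0 against 690 of 1329 RNAs. Over all 55 genes without the filter it was 0.14. At an unadjusted p under 0.05, 1 *rps* gene was higher and 0 lower, where 1.73% and 2.48% of all RNAs were. The *aal1-pOE* libraries lay above wild type without overlap for 8 *rps* genes (20.5%) and below for 4 (10.3%), against 17.8% and 16.5% of all RNAs. The median fell below 0, to -0.11, without wild-type replicate 1, where that of all RNAs was 0.13. It was 0.10 without *aal1-pOE* replicate 2 and 0.43 without wild-type replicate 2, against -0.09 and 0.12 for all RNAs.

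**Figure D4:**
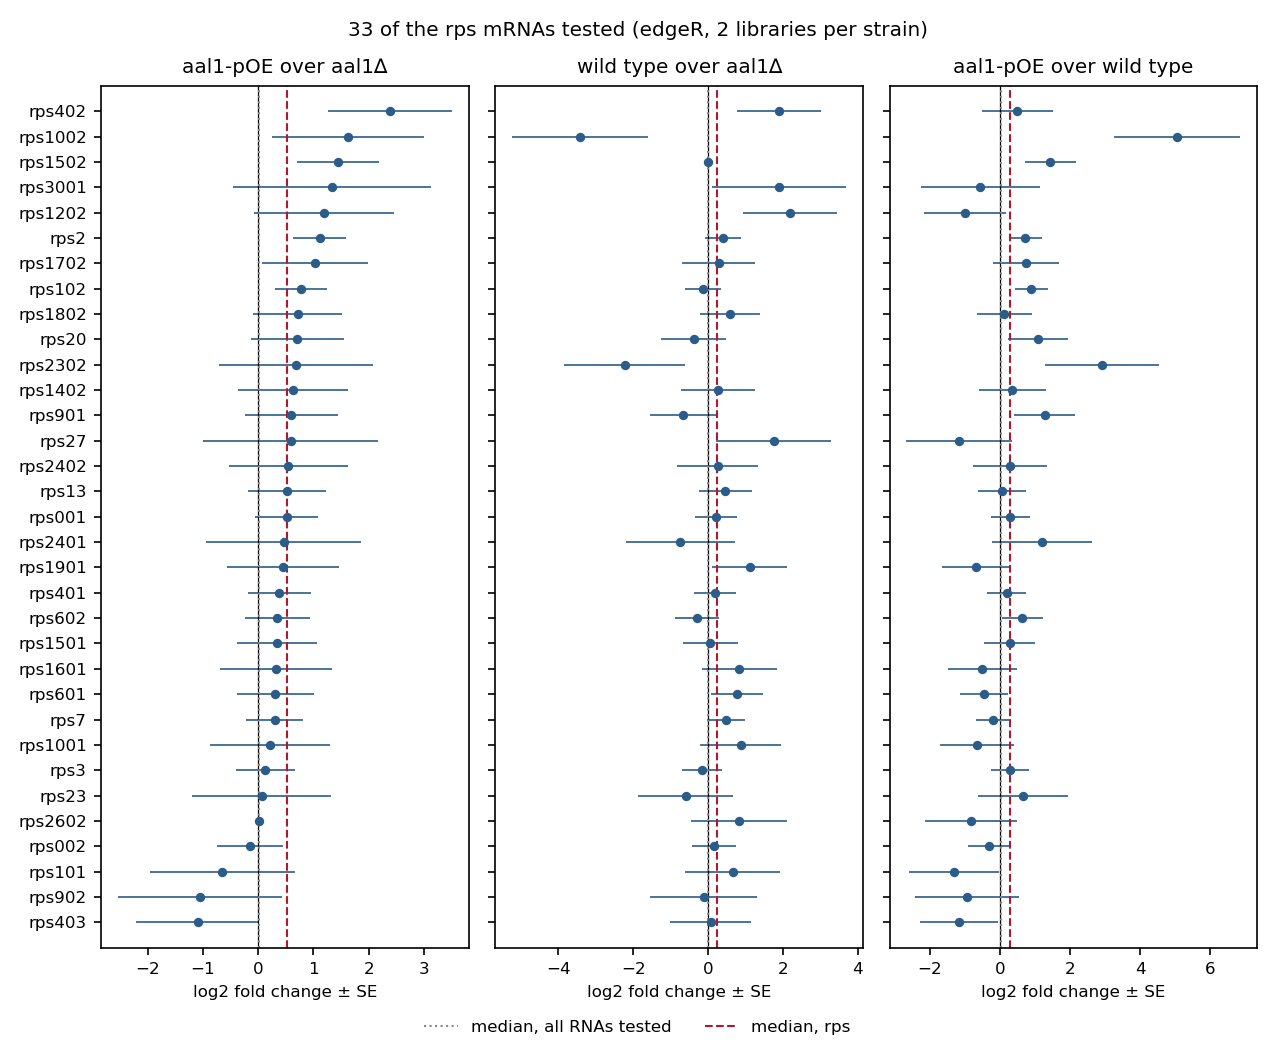
Log2 fold changes of 33 of the 39 tested *rps* mRNAs in 3 comparisons (x axis, point with standard error; error bars are left out where the log2 fold change is within 0.05 of 0), ordered down the page by *aal1-pOE* over *aal1∆*. The dashed line is the median of all 39 *rps* mRNAs (0.52, 0.24 and 0.28 from left to right) and the dotted line the median of all RNAs tested (0.01, 0.00 and 0.03); most error bars reach or cross 0.

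The members with an unadjusted p under 0.05 belong to different parts of the subunit. *rps2* (SPCC576.08c; chrIII:2095135-2096036, minus strand, ASM294v3, no intron) had 750 and 1078 normalised CPM in *aal1-pOE*, 388 and 730 in wild type, against 478 and 342 in *aal1∆*. Both *aal1-pOE* libraries lay above all 4 others, and the wild-type libraries fell on either side of the higher *aal1∆* library. Its log2 fold change in *aal1-pOE* over *aal1∆* was 1.12 (SE 0.479, edgeR unadjusted p = 0.0225, adjusted p = 0.820). It is the only one of these genes with at least 14 counts in every library. It overlaps another annotated gene on the same strand.

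*rps402* (SPBC21B10.10; chrII:1650825-1651833, minus strand, no intron), 1 of 3 genes for Rps4, a protein of the subunit body, gave 14 and 18 counts in *aal1-pOE*, 14 and 12 in wild type, against 10 and 0 in *aal1∆*. In normalised CPM this is 162 and 290 in *aal1-pOE*, 133 and 186 in wild type, against 63.7 and 0 in *aal1∆*. Its log2 fold change was 2.39 (SE 1.12, unadjusted p = 0.0359, adjusted p = 0.906, edgeR) in *aal1-pOE* over *aal1∆* and 1.89 (SE 1.12) in wild type over *aal1∆*. The size of both rests on the *aal1∆* libraries: without replicate 2 they were 1.75 and 1.25, and without replicate 1, which leaves only the library with 0 counts, 7.02 and 6.54, values that depend on the prior count and are no bound. Its paralog *rps403* had 69.3 and 80.5 normalised CPM in *aal1-pOE*, 37.9 and 311 in wild type, against 172 and 147 in *aal1∆*, with a log2 fold change of -1.10 (SE 1.12) in *aal1-pOE* over *aal1∆*. Both *aal1-pOE* libraries thus lay below both *aal1∆* libraries for *rps403* and above them for *rps402*. The proteins of these genes differ at 3 residues.

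*rps1002*, a gene for Rps10 on the head of the subunit, had the smallest p of all, in *aal1-pOE* over wild type. It gave 10 and 22 counts in *aal1-pOE*, 1 and 0 in wild type, against 20 and 0 in *aal1∆*. The summed counts of *aal1-pOE* over wild type, scaled to library totals, had a ratio of 32.3 with a 95% counting interval of 5.40 to 1317 (edgeR unadjusted p = 0.00655, adjusted p = 0.995). The *aal1∆* replicates, 127 and 0 normalised CPM, overlapped both other strains (115 and 354 in *aal1-pOE*, 9.47 and 0 in wild type). *rps2302*, for the decoding-site protein Rps23, had a like pattern, with 17 and 8 counts in *aal1-pOE*, 0 and 3 in wild type, against 25 and 1 in *aal1∆*, and a ratio of 8.42 (2.57 to 43.6) in *aal1-pOE* over wild type.

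*rps1202*, *rps1601*, *rps1802*, *rps2402* and *rps402* were among the 6 of 39 *rps* genes (15.4%) in which all 4 libraries of *aal1-pOE* and wild type lay above both *aal1∆* libraries, against 5.27% of all 1329 RNAs. Both comparisons use the same *aal1∆* libraries. *rps1202* had 127 and 80.5 normalised CPM in *aal1-pOE*, 114 and 311 in wild type, against 57.3 and 24.4 in *aal1∆*. These rest on 11 and 5, 12 and 20, and 9 and 1 counts. *rps1601* and *rps2402* had 4 counts each in *aal1∆* replicate 2. For *rps2402* the lowest wild-type value was 124 normalised CPM (8 counts), against 115 (18 counts) in *aal1∆* replicate 1, so a difference of few counts could undo the separation. *rps1802*, for the head protein Rps18, had 266 and 225 in *aal1-pOE*, 189 and 264 in wild type, against 134 and 171 in *aal1∆*. None of these genes passed the adjusted threshold in either comparison.

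The other members named by the size of their p or by the study had wider errors or lay closer to *aal1∆*. *rps27*, whose zinc-binding protein is encoded by this gene alone, had 11.5 and 129 normalised CPM in *aal1-pOE*, 151 and 155 in wild type, against 57.3 and 24.4 in *aal1∆*, resting on 1 and 8, 16 and 10, and 9 and 1 counts. Wild type lay above both other strains, and the *aal1-pOE* replicates lay below and above *aal1∆*. The log2 fold change was 0.59 (SE 1.58) in *aal1-pOE* over *aal1∆*, 1.75 (SE 1.53) in wild type over *aal1∆* and -1.17 (SE 1.50) in *aal1-pOE* over wild type. Without *aal1-pOE* replicate 2 the first was -1.80 and the last -3.54, and without *aal1∆* replicate 1 the second was 2.66. *rps1502*, a gene for the decoding-site protein Rps15, had 300.2 and 579 normalised CPM in *aal1-pOE*, 123 and 202 in wild type, against 102 and 244 in *aal1∆*, with log2 fold changes of 1.44 (SE 0.744) over *aal1∆* and 1.44 (SE 0.729) over wild type. *rps102* had 577 and 1303 in *aal1-pOE*, 473 and 528 in wild type, against 592 and 489 in *aal1∆*, and 0.90 (SE 0.468) over wild type. Without *aal1-pOE* replicate 2 the value of *rps102* was 0.25, and over all fits that left out 1 library it ran to 1.35. Those of *rps1502* ran from 0.91 to 2.04 over *aal1∆* and from 0.93 to 1.86 over wild type.

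The genes with the smallest p on the lower side of wild type over *aal1∆* included *rps1002*, *rps2302* and *rps901*. *rps901* had 139 and 418 in *aal1-pOE*, 75.7 and 155 in wild type, against 242 and 97.8 in *aal1∆*. The log2 fold change of *rps901* in wild type over *aal1∆* was -0.67 (SE 0.877), and 0.30 without *aal1∆* replicate 1. *rps902* had 92.4 and 16.1 in *aal1-pOE*, 208 and 0 in wild type, against 134 and 97.8 in *aal1∆*, and a log2 fold change of -1.05 (SE 1.49) in *aal1-pOE* over *aal1∆*, which was -2.76 without *aal1-pOE* replicate 1 and -0.31 without replicate 2. *rps101* had 80.8 and 48.3 in *aal1-pOE*, 142 and 186 in wild type, against 89.2 and 122 in *aal1∆*, and -0.65 (SE 1.31) in *aal1-pOE* over *aal1∆* and -1.30 (SE 1.29) over wild type. The first of these was -1.05 without *aal1-pOE* replicate 1 and -0.29 without replicate 2.

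The 16 genes that did not pass the filter had low counts, from 5 to 59 over all 6 libraries. Among them, *rps2502* gave 10 and 3 counts in *aal1-pOE*, 4 and 6 in wild type, against 19 and 17 in *aal1∆*, while its paralog *rps2501* had 1 and 7, 0 and 5, and 1 and 0. Rps25 is needed for translation from some internal ribosome entry sites in budding yeast. *rps1902* gave 1 and 0 counts in *aal1-pOE*, 0 and 3 in wild type, against 9 and 4 in *aal1∆*, whereas *rps1901* had 22 and 1, 18 and 18, and 14 and 5. Rps19 is mutated in Diamond-Blackfan anaemia in humans. Both genes of Rps28 were low, with *rps2801* at 3 and 0 counts in *aal1-pOE*, 0 and 1 in wild type, against 10 and 0 in *aal1∆*, and *rps2802* at 0 and 0, 4 and 1, and 5 and 0. No *rps* gene was at 0 in every library.

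Balance within paralog families was described for 6 of the 9 families, among 23 with several genes, that had at least 10 counts in every library (Rps0, Rps1, Rps4, Rps6, Rps15 and Rps24), as the share of the family's counts taken by a given gene. The Rps1 pair leaned strongly to one gene in every library. *rps102* took 87.7% and 96.4% in *aal1-pOE*, 76.9% and 73.9% in wild type, against 86.9% and 80.0% in *aal1∆*. The gap between replicates was at most 8.71 points, the smallest of the 6 families, and all 3 strains lay apart: *aal1-pOE* highest, then *aal1∆*, then wild type. The difference between the strain means of *aal1-pOE* (92.1% ± 6.16) and wild type (75.4% ± 2.13, SD, n = 2 each) was 16.7 points, with an exact two-sided permutation p of 0.33, the smallest that 2 libraries against 2 can give. Exact binomial 95% intervals were 76.3% to 94.9% and 89.9% to 99.3% in *aal1-pOE*, and 64.8% to 86.5% and 58.9% to 85.7% in wild type.

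The Rps4 family of 3 genes kept its leading gene. *rps401* took 63.6% and 61.0% in *aal1-pOE*, 59.1% and 55.6% in wild type, against 54.9% and 76.9% in *aal1∆*. *rps402* took 25.5% and 30.5% in *aal1-pOE*, 31.8% and 16.7% in wild type, against 12.2% and 0% in *aal1∆*, so both *aal1*-carrying strains lay above *aal1∆* (exact two-sided permutation p = 0.33 for each, the smallest possible). *rps403* took 10.9% and 8.47% in *aal1-pOE*, 9.09% and 27.8% in wild type, against 32.9% and 23.1% in *aal1∆*, with *aal1-pOE* below *aal1∆* in both libraries. The 0% of *rps402* rests on 26 family counts and allows up to 13.2%.

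In the Rps15 pair *rps1501* took 50% and 32.1% in *aal1-pOE*, 58.1% and 60.6% in wild type, against 57.9% and 58.3% in *aal1∆*. Wild type and *aal1∆* were within 3 points of each other, while *aal1-pOE* lay below both. *rps601*, 1 of 2 genes for Rps6, the protein phosphorylated downstream of TORC1 signalling, took 46.2% and 22.7% in *aal1-pOE*, 59.1% and 50.8% in wild type, against 38.3% and 33.3% in *aal1∆*. Wild type was highest here in both libraries. The Rps0 and Rps24 pairs crossed 50% between libraries: *rps001* took 52.8% and 62.5% in *aal1-pOE*, 53.5% and 44.3% in wild type, against 35.7% and 69.6% in *aal1∆*, and *rps2401* took 38.5% and 55.6%, 30% and 33.3%, and 35.7% and 60% in the same order of strains.

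**Figure D5:**
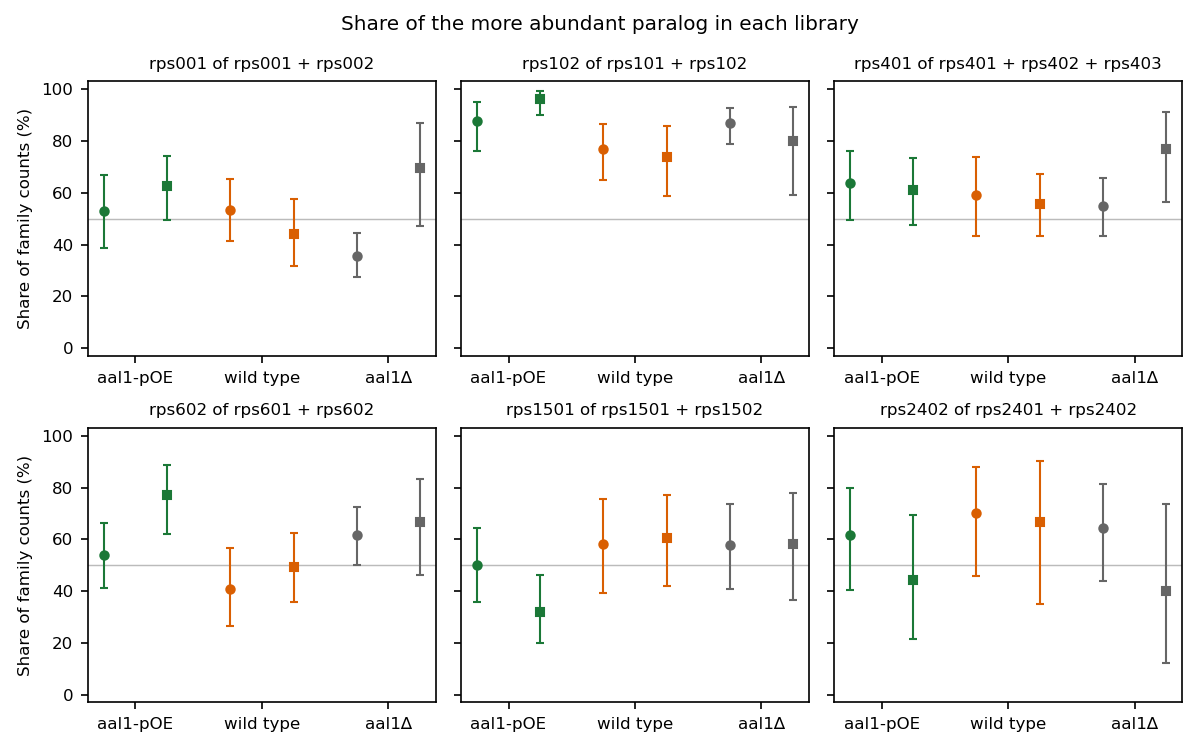
Share of a family's counts (y axis, %) taken by the gene with the highest mean share in each of 6 paralog families, 1 point per library (circle, replicate 1; square, replicate 2), with exact binomial 95% intervals and a grey line at 50%. The share of *rps102* stays between 73.9% and 96.4%, whereas that of *rps001* lies at 35.7% in 1 *aal1∆* library and 69.6% in the other.

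Over the 6 families, the largest gap between replicates of one strain had a median of 22.7 points and exceeded the largest difference between strain means in 4. The exact 95% intervals of the replicates were apart in 1 of the 6, and only in *aal1∆*. With counts of a family summed, the median absolute log2 difference between replicates was smaller than for single genes: 0.63 for 23 families against 0.85 for their 47 genes in *aal1-pOE*, 0.80 against 0.998 in wild type, and 0.61 against 0.99 in *aal1∆*. Relative to counting noise the families were not closer. Their chi-square per degree of freedom was 4.85 against 4.38 for single genes in *aal1-pOE*, 4.99 against 4.13 in wild type and 3.53 against 3.055 in *aal1∆*. These values cover families and genes with at least 10 counts in the strain. The cause of the smaller log2 difference was not tested.

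Promoters of the members share the HomolD box, a core element of fission yeast ribosomal protein genes. The letters CAGTCACA, on either strand, were found within 250 bases before to 50 bases after the annotated start of 34 of 55 *rps* genes (61.8%), against 65.8% of *rpl* genes and 2.68% of all 5112 nuclear protein-coding genes. The HomolE letters CCCTACCCT were found in 41.8% of *rps*, 31.6% of *rpl* and 1.53% of all promoters, with 11 *rps* genes holding both boxes and 9 neither. The centre of the HomolD match lay 39 to 71 bases before the annotated start, with a median of 48. It was present in the 3 genes recovered best, whose windows of 30 bases (ASM294v3, 5′ to 3′ on the gene's strand) are shown with the box in capitals.
*rps7* (chrI:2242561-2242590, minus strand): ttttggaagagCAGTCACAaagtgaaatat
*rps102* (chrI:898988-899017, minus strand): tcaaaaaaggaCAGTCACAaatagcacttt
*rps2* (chrIII:2096064-2096093, minus strand): atgagcccaaaCAGTCACActcattataga
Of the 23 families with several genes, 5 had the box in every gene and 18 in some of them. In 12 of these 18 the gene with the highest CPM per kb had the box and in 6 it did not. In the Rps1 pair the well-recovered *rps102* had it and *rps101* did not, whereas in the Rps25 pair *rps2502* (402 CPM per kb) lacked it and *rps2501* (84.1) had it. The 34 genes with the box had a median of 219 CPM per kb (range 53.6 to 644) and the 21 without it 147 (14.5 to 420.4), so the ranges overlapped widely. A match is a description of the sequence, and the activity of these promoters was not measured here.

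Other genes of the ribosome gave no call in any comparison by edgeR. The genes tested were 47 of 76 *rpl* genes, 3 of 10 stalk protein genes (*rpp*), 1 of 59 mitochondrial ribosomal protein genes and 6 of 29 genes for 40S assembly factors and partners. At an unadjusted p under 0.05 in *aal1-pOE* against *aal1∆*, 2 of the 47 *rpl* genes were higher and 1 lower, where 2.26% and 3.16% of all RNAs were. In wild type against *aal1∆* 1 was higher and 0 lower, where 1.13% and 1.35% of all RNAs were. In *aal1-pOE* against wild type 0 were higher and 1 lower, where 1.73% and 2.48% of all RNAs were. The other lists had 0 such genes in each comparison.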

How the data were processed

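The members and gene lists were chosen with earlier results of these data known. Per the labels and the paper's methods, the authors made strand-specific libraries from DNase-treated pull-down RNA (NEXTflex kit), sequenced read pairs of 75 bases, trimmed 8 bases, aligned the pairs (HISAT2 2.2.1) and took gene counts with HTSeq 0.12.3; the submitters' processing notes also name SAMtools 1.14, FastQC 0.11.2, deepTools 3.5.1 and edgeR 3.32.1. The deposited table holds these raw counts, with no normalisation. Collapsing of molecular indices is not described, so some counts may be copies of the same molecule. Intervals cover counting error only, treat every count as a separate molecule, and may be too narrow. The chi-square values rest on the same assumption. Mapping was run in a forward-reverse and counting in a reverse strand mode, and the strand counted was taken to be that of each gene. At the *aal1* locus the counts bear this out. SPNCRNA.401, which lies antisense to *aal1*, had 630 and 846 counts in *aal1-pOE*, against 9540 and 20832 for *aal1*. In wild type it had 0 and 0, against 28 and 147. Other loci were not checked. Of the members, 20 overlap a gene on the other strand and 4 one on the same strand. The authors' genome build was not found in the labels or methods; symbols, lengths, introns and sequences were taken by gene ID from ASM294v3, to which 6863 of 7001 IDs matched.

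Counts were analysed with edgeR 4.0.16 (R 4.3.3): TMM, filterByExpr, glmQLFit and glmQLFTest on all 6 libraries, Benjamini-Hochberg over 1329 RNAs, threshold 0.05. The standard error is the log2 fold change over the square root of F. Normalised CPM are counts scaled to 1000000 by TMM-scaled library size; CPM per kb use the total count. The test was checked on simulated data with log2 changes of 3, up or down. It called 117 of 188 changed RNAs in *aal1-pOE* against *aal1∆*, with 1 false call. For wild type against *aal1∆* it called 127 of 176, with 6 false calls. For *aal1-pOE* against wild type it called 135 of 179, with 5 false calls. Many changes of that size were thus missed, and smaller changes were not simulated. Alternatives were DESeq2 1.42.0, edgeR's likelihood ratio test, other scalings and filters, a fit of only the compared strains, a replicate block and each library left out. Named genes were those with an unadjusted p under 0.05, the 4 smallest p per direction and comparison, the 3 highest and 3 lowest per kb, *rps27*, and the paralog families described; *rps1601*, *rps1802*, *rps2402*, *rps1901*, *rps1902*, *rps2501*, *rps2502*, *rps2801*, *rps2802* and *rps29* were named after their values were seen. For 6 genes of 3 protein families values are not reported here; they stay in the fits, counts and medians.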

Additional observations from a re-analysis of the deposited data

How the results depend on the processing

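No *rps* gene was called in any comparison under any of the alternatives run. With all counts as the denominator, the *rps* share was 0.960% in *aal1-pOE*, 0.906% in wild type and 0.785% in *aal1∆*; with all counts but *aal1*, SPNCRNA.401 and rRNA it was 1.57% in *aal1-pOE* and 1.21% in *aal1∆*, and *aal1-pOE* stayed above *aal1∆* in each. Leaving out 1 library of a strain leaves the share of its other library, so for shares of nuclear mRNA this only repeats the values per library. They were 1.68% to 2.22% in *aal1-pOE*, 1.47% to 2.01% in wild type and 1.30% to 1.56% in *aal1∆*. With 1 library left out, *rps* medians were 0.28 to 0.66 for *aal1-pOE* over *aal1∆*, 0.15 to 0.52 for wild type over *aal1∆* and -0.11 to 0.43 for *aal1-pOE* over wild type. With library size as the only scaling, the median of all RNAs moved to -0.14 in *aal1-pOE* over *aal1∆* and -0.17 in *aal1-pOE* over wild type, and the *rps* medians were 0.50 and 0.26 above it.

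Of 21 fold changes of named genes, 4 changed sign when 1 library was left out. In *aal1-pOE* over *aal1∆*, *rps27* ran from -1.80 (without *aal1-pOE* replicate 2) to 1.49. In wild type over *aal1∆*, *rps1002* ran from -5.67 to 2.09 and *rps901* from -1.27 to 0.30 (both positive without *aal1∆* replicate 1). Each end for *rps1002* comes from a fit in which 1 strain keeps only a library with 0 counts. Both of its ends depend on the prior count and are no bound. In *aal1-pOE* over wild type, *rps403* ran from -2.09 to 1.002 (without wild-type replicate 2). The cause was not tested. Replicate numbers did not pair the samples (correlations of same-numbered deviations of -0.05, 0.05 and 0.09). With the replicate number as a block, 0 *rps* genes were called, and the *rps* medians were 0.44 for *aal1-pOE* over *aal1∆*, 0.17 for wild type over *aal1∆* and 0.21 for *aal1-pOE* over wild type. The median share of the leading paralog, 58.0% over 6 families, was 57.1% to 58.7% with 1 library left out and 63.6% with counts per kb of transcript. Members had a median of 66 counts over the 6 libraries, which limits the precision of single genes.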
